A study of Drosophila melanogaster with 14 samples.

Results

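The genes described here are the 60 genes of a fixed list of RR-type cuticle protein genes (*Cpr* genes and *Lcp1* to *Lcp4*), found by their CG identifiers among the 13781 genes of the mRNA-Seq table. All 60 were found. They lie on chromosome arms 3L (31 genes), 2R (25 genes) and 3R (4 genes). None lies on arm 2L, which carries the deficiency *Df(2L)32FP-5*, but the 25 genes of arm 2R share chromosome 2 with it. By the methods of the study, back-crosses to the balancer stock replaced the other chromosomes of the mutant stock, but not this one. The study used this deficiency, which removes both *spalt* genes (*salm* and *salr*, together *sall*), to compare embryos during and after a phase of neuronal degeneration. Wild type embryos (WT, *sall*+/+) came from an *Oregon R* stock, heterozygous embryos (He, *Df(2L)32FP-5*/+) from females of the deficiency stock crossed with *white*- males, and homozygous embryos (Ho, 2 copies of the deficiency) from the deficiency stock itself, kept over a *CyO*-GFP balancer, by their lack of GFP. Each library was made from untreated pools of 50 whole embryos at early stage 16 (13 to 14 hours of development at 25 °C) or early stage 17 (around 16 hours), and at each stage there were 2 WT, 2 He and 3 Ho libraries. The libraries named ab join technical replicates of experiments a and b. The genotypes differ in strain background as well as in *sall*, and these 2 differences cannot be told apart in any comparison between genotypes. In whole embryos, fewer cells of a type and less RNA per cell cannot be told apart either.

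The insect cuticle is a layer of chitin fibres and proteins that the epidermis secretes at its outer face. Proteins of the RR type carry the Rebers and Riddiford consensus, an extended stretch that binds chitin, and they form the largest family of cuticle proteins in insects. In the fly embryo the epidermis and the tracheae begin to lay down the cuticle of the first larva late in embryogenesis, after a pulse of the steroid hormone ecdysone. Many of these genes sit side by side in clusters, and the numbers and letters in their symbols give the band of the polytene chromosomes in which they lie (*Cpr65Ea* in band 65E). The genes *Lcp1* to *Lcp4* were first known as genes for proteins of the larval cuticle. For most single *Cpr* genes no separate function is known.

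The authors deposited values on a log2-like scale, for which counts were scaled by size factors and then variance-stabilized. Whole reads were recovered from these values, and levels are given here as normalized reads, that is, reads divided by the size factor of the library. A log2 change or log2 difference in the main fit is a difference of deposited values, not the log2 of a ratio of normalized reads. These measures differ: in WT, *Cpr47Eg* changed by 9.63 where the ratio of its mean normalized reads was 266. Fold changes are therefore to be read from the ratios, where given. Depth ran from 4760302 to 23213621 reads on genes, and from 12897027 outside the 3 Ho libraries of stage 16 (Ho16). A count of 3 reads, taken as the floor for a gene without reads, stands for 12.1 normalized reads in Ho16a, 6.27 in Ho16b and between 1.78 and 3.89 in the other libraries. The libraries of experiment c and all Ho17 libraries had between 46 and 94 genes with exactly 1 read, and the others between 512 and 645. Ho16c stood farthest apart, with 4514 genes at 0 reads and 32 of the 60 RR-type genes at 0. In WT16 and He16, 9 and 6 of these genes were at 0 in the ab library and 28 and 23 in the c library. The 53 tested genes were higher in the ab than in the c library in 41 cases in WT16 and in 36 cases in He16, against 52.2% and 52.3% of all tested genes. In WT17 they were higher in the ab library in 36 cases and in He17 in 22, against 53.2% and 53.6% of all tested genes, so that He17 went the other way. Recovered reads of *salm* and *salr* were at least 768 and 603 in every WT and He library and at most 96 and 19 in every Ho library. All 5 markers of muscle, of neurons and of epidermis and trachea had reads in every library, and the 5 hemocyte markers in all but Ho16a and Ho16c, where 1 marker was at 0.

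Expression of the 60 genes as a group was low at stage 16 and high at stage 17 in every genotype. At stage 16 they took between 0.0402% (95% Wilson interval 0.0386 to 0.0418%) and 0.105% (0.103 to 0.106%) of the reads of a library, and at stage 17 between 0.638% (0.634 to 0.641%) and 1.03% (1.03 to 1.04%). These intervals cover counting error only. Summed over the genes, mean normalized reads were 8143 in WT16 and 156603 in WT17, a ratio of 19.2. In He they were 8089 and 155514, also a ratio of 19.2, and in Ho 11920 and 137134, a ratio of 11.5. The lowest sum at stage 17 was 100408 normalized reads in Ho17a and the highest at stage 16 was 15731 in Ho16a, so that the stages did not overlap. A few genes made up most of each sum, since the leading 5 held 68.9 to 80.5% of it at stage 16 and 55.8 to 65% at stage 17. The summed levels of the muscle markers also moved with stage, from between 221629 and 322788 normalized reads at stage 16 to between 509554 and 770548 at stage 17. Those of epidermis and trachea (*grh*, *kkv*, *Fas3*, *crb* and *btl*) went from between 16224 and 28903 to between 11859 and 18084. These ranges overlapped, and the markers did not move together. Mean normalized reads of *kkv* went from 8829 to 3965 in WT, 9196 to 3351 in He and 7500 to 4410 in Ho. Those of *grh* went from 1982 to 1988, from 1981 to 2202 and from 1273 to 2834. The part of the muscle, epidermis and trachea markers in the changes of the cuticle genes was not tested.

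**Figure D1:**
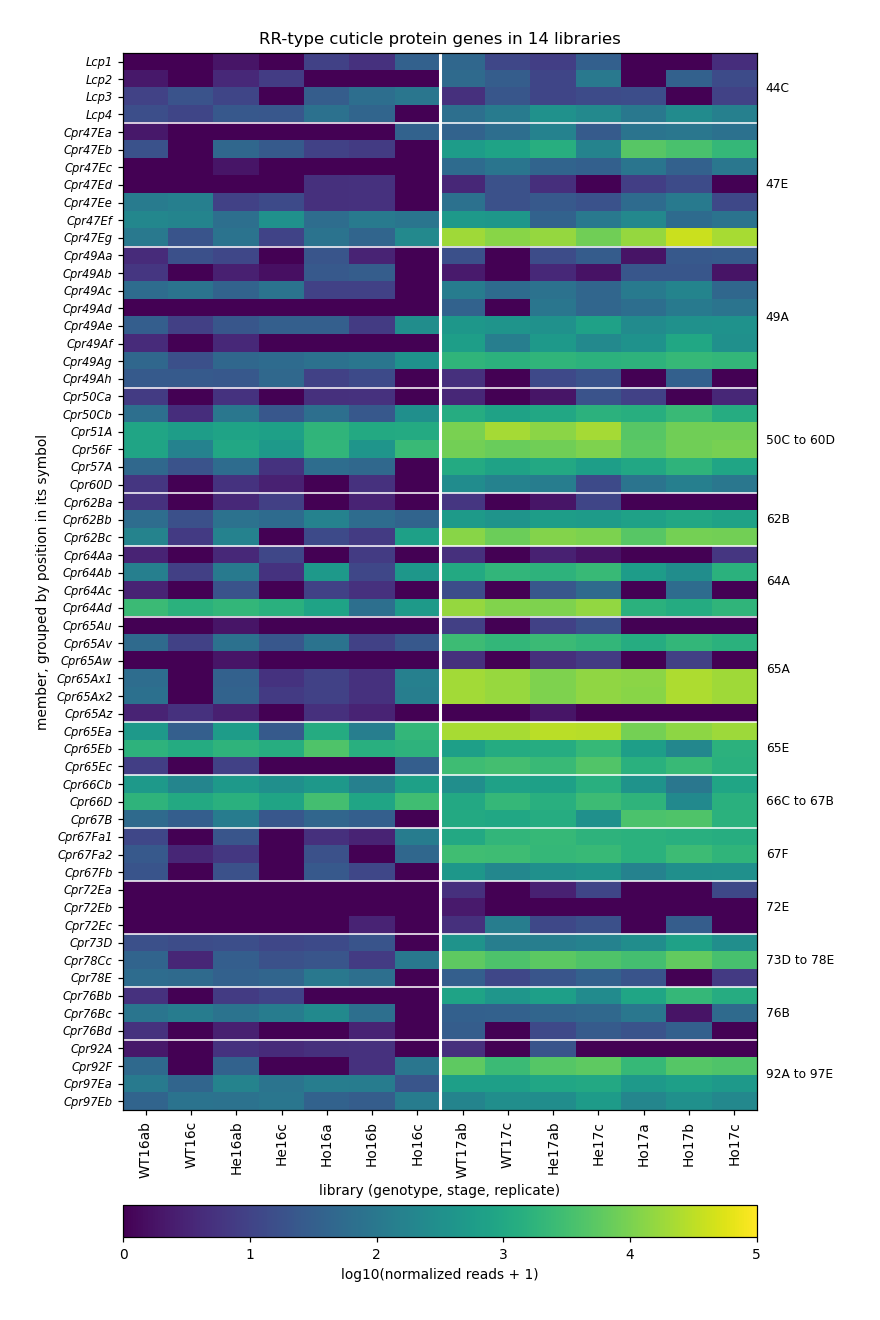
Level of each of the 60 genes (vertical axis, grouped by the band in the symbol) in each of the 14 libraries (horizontal axis), as log10 of normalized reads plus 1. Genes such as *Cpr65Ax1* and *Cpr47Eg* are dark at stage 16 and bright at stage 17, while *Cpr64Ad*, *Cpr65Eb*, *Cpr66D* and *Cpr51A* have reads in every library, and genes such as *Cpr72Eb* stay near 0 throughout.

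Different genes led the group at the 2 stages. Per kb of exon, the most abundant genes of WT16 were *Cpr64Ad* (2105 normalized reads per kb, range 1593 to 2617, n = 2), *Cpr65Eb* (1453, range 1206 to 1700), *Cpr66D* (1292, range 973 to 1612) and *Cpr51A* (1125, range 942 to 1308). The ranges of neighbours in this order overlapped. In WT17 the order per kb was led by *Cpr65Ax1* (48381, range 43711 to 53052), *Cpr65Ea* (41183, range 41041 to 41325) and *Cpr47Eg* (38264, range 30085 to 46442). *Cpr65Ax2* had almost the same reads as *Cpr65Ax1* in each library but a longer annotated exon (732 against 389 bases), and its level per kb was 25748. Reads may have been split between *Cpr65Ax1* and *Cpr65Ax2*, so that the ranks of both rest on the annotated lengths. With this limit, the range of *Cpr65Ax1* lay above that of *Cpr65Ea*. The ranges of *Cpr65Ea* and *Cpr47Eg* overlapped. In Ho17 the order was led by *Cpr47Eg* (61186 per kb, range 37712 to 93718, n = 3), and *Cpr65Ea* had 25752 (range 17007 to 33661), which overlapped with *Cpr65Ax2* (25915, range 18024 to 33592). The use of the longest transcript in place of all exons left the 10 leading genes of WT16 and the 12 of WT17 in the same order.

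The first comparison asks which genes changed from stage 16 to stage 17 within a genotype. A gene was called when limma gave an adjusted p under 0.001 over the 11584 genes that passed a filter on low reads, and 53 of the 60 genes passed. In WT, 11 of the 53 rose and 0 fell, against 2.77% of all tested genes called higher and 0.596% called lower. In He, 11 rose and 0 fell (2.49% and 0.501% of all tested genes), and in Ho, 21 rose and 0 fell (6.91% and 1.04%). The median log2 change of the 53 genes was 3.53 in WT, 3.54 in He and 3.27 in Ho, and that of all tested genes 0.04, 0.01 and 0.12. Genes at 0 reads in every stage 16 library of a genotype enter these medians with the deposited value for 0 reads. The size of their changes rests on that value. The filter keeps genes that are high at 1 stage only, so these counts and medians describe the genes that passed it. The other 7 genes (*Cpr50Ca*, *Cpr64Aa*, *Cpr65Au*, *Cpr65Aw*, *Cpr65Az*, *Cpr72Eb* and *Cpr92A*) had too few reads and were not tested.

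The number of calls depended on single libraries. For WT it was 24 without Ho16c, 5 without WT16c, 3 without WT17ab and 3 without WT17c. For He it was 21 without Ho16c, 2 without He16c, 2 without He17ab and 3 without He17c, and for Ho it was 13 without Ho17b. By library values alone, 37 of the 53 genes were higher in both WT17 libraries than in both WT16 libraries (33.5% of all tested genes were) and 5 were lower (28.4% of all tested genes). In He, 43 genes were higher without overlap (33.8%) and 2 lower (29.9%), and in Ho 33 were higher (22.0%) and 2 lower (13.5%). At an adjusted p under 0.05 in limma, 30 genes passed in WT (13.3% of all tested genes in either direction), 28 in He (11.4%) and 35 in Ho (27.1%), all of them higher except *Cpr65Eb* in Ho.

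**Figure D2:**
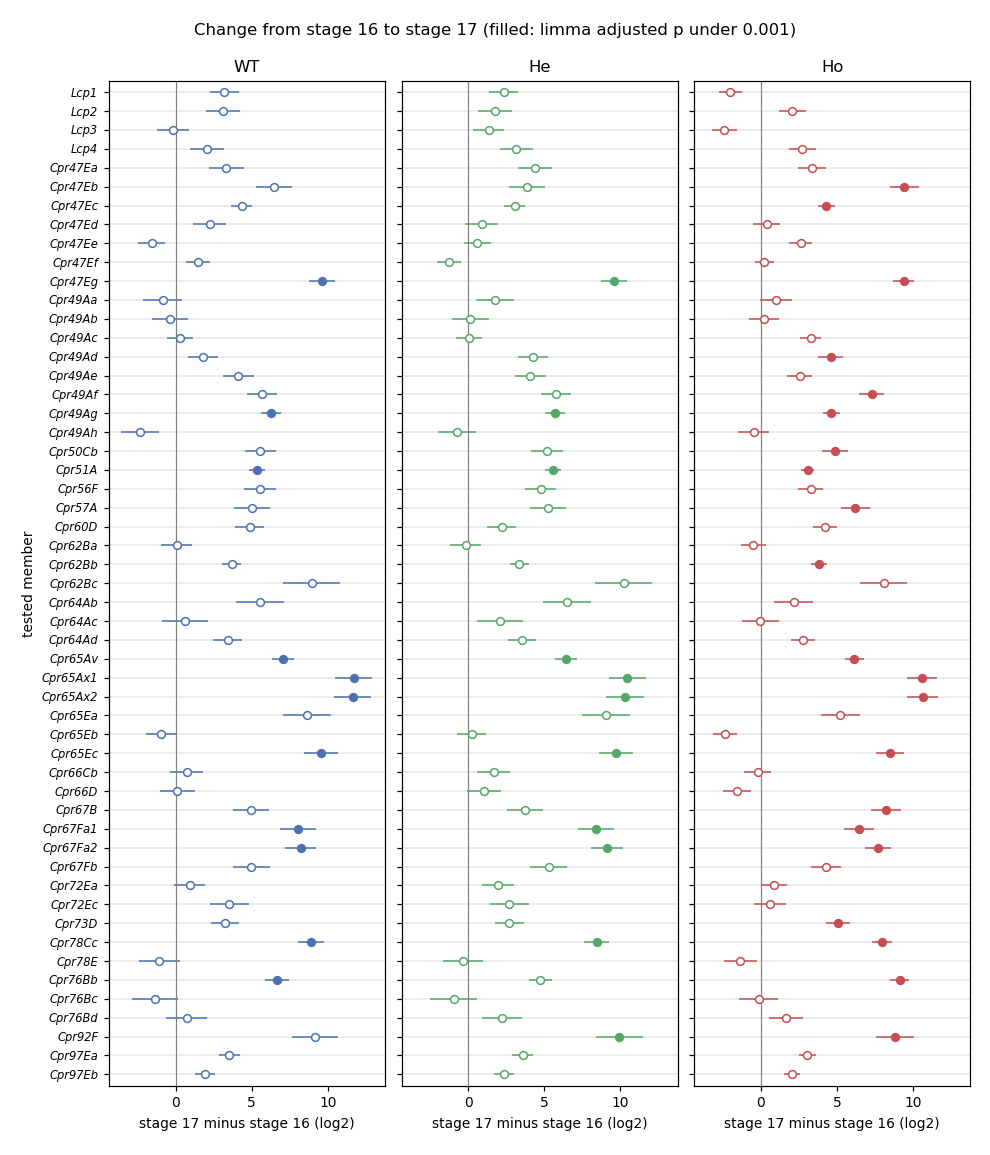
Change of each of the 53 tested genes from stage 16 to stage 17 in WT, He and Ho, on the deposited log2-like scale, with bars of 1 standard error from limma. Filled points mark the 11, 11 and 21 genes with an adjusted p under 0.001, and all of them lie to the right of 0.

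In all 3 genotypes the same 10 genes passed the threshold: *Cpr47Eg*, *Cpr49Ag*, *Cpr51A*, *Cpr65Av*, *Cpr65Ax1*, *Cpr65Ax2*, *Cpr65Ec*, *Cpr67Fa1*, *Cpr67Fa2* and *Cpr78Cc*. *Cpr76Bb* passed in WT and Ho, and *Cpr92F* in He and Ho. A further 9 genes (*Cpr47Eb*, *Cpr47Ec*, *Cpr49Ad*, *Cpr49Af*, *Cpr50Cb*, *Cpr57A*, *Cpr62Bb*, *Cpr67B* and *Cpr73D*) passed in Ho alone, where the fit had 3 libraries at each stage in place of 2. This count is no evidence of a difference between genotypes: in limma's test of the difference between stage changes, 0 of the 53 genes were called. The values of *Cpr57A* were identical in all libraries to those of the odorant binding protein gene *Obp57d*, so that its reads may belong to either gene.

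Of the 7 genes of band 47E, *Cpr47Eg* (CG9070) had the largest change in WT and He. In WT it went from 102 and 18.96 normalized reads (libraries ab and c) to 19552 and 12666, in He from 79.9 and 9.29 to 16387 and 8095, and in Ho from 80.8, 41.8 and 229 (libraries a, b and c) to 15877, 39455 and 21946. Every stage 17 library lay far above every stage 16 library. The ratio of the means was 266 in WT, 275 in He and 220 in Ho, and the log2 changes were 9.63 (SE 0.86, adjusted p = 2.11e-05 in limma), 9.58 (SE 0.86, adjusted p = 2.98e-05) and 9.38 (SE 0.70, adjusted p = 1.99e-06). Under the alternatives run, the highest adjusted p of *Cpr47Eg* in limma was 0.00099 in He and 0.00038 in Ho, below the threshold, and 0.0023 in WT, where the call was lost.

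*Cpr47Eb* (CG13224) rose in Ho. Its levels were 8.08, 6.27 and 0 normalized reads in the Ho16 libraries and 5060, 3608 and 2131 in the Ho17 libraries, a log2 change of 9.44 (SE 0.97, adjusted p = 1.85e-05 in limma). In WT they were 16.99 and 0 at stage 16 and 592 and 787 at stage 17, and in He 44.9 and 25.4, then 1392 and 171.5. The 3 Ho17 libraries were higher than all 4 other stage 17 libraries, and the stages did not overlap in any genotype. The WT and He changes (6.46 and 3.86 on the log2 scale) had adjusted p-values of 0.00261 and 0.0545 in limma. Of the other band 47E genes, *Cpr47Ec* passed in Ho, where it had 0 reads in all 3 libraries at stage 16 and a mean of 71.8 normalized reads at stage 17, at least 10.2-fold higher against a floor of 3 reads in each library.

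On the deposited scale, *Cpr65Ax1* and *Cpr65Ax2* of band 65A had the largest stage changes of the tested members in each genotype. By the ratio of mean normalized reads, other genes exceeded them. *Cpr65Ec* had 810 in WT and 863 in He, against 611 and 661 for *Cpr65Ax1*. In Ho, *Cpr47Eb* had 752 against 385 for *Cpr65Ax2*. *Cpr65Ax1* (CG34270) had 61.6 and 0 normalized reads in WT16 and 20637 and 17004 in WT17, 34.1 and 4.33 in He16 and 10731 and 14675 in He17, and 8.08, 4.18 and 148.7 in Ho16 and 13249, 24417 and 19429 in Ho17. *Cpr65Ax2* (CG18777) had 69.0 and 0 in WT16, 20552 and 17144 in WT17, 38.6 and 6.19 in He16, 10817 and 14892 in He17, 8.08, 4.18 and 135.6 in Ho16, and 13194, 24590 and 19127 in Ho17. The 2 genes are near-identical copies, and the reads may have been split between them, so that they count as 1 observation. Their log2 changes were 11.71 and 11.65 in WT, 10.47 and 10.31 in He and 10.60 and 10.64 in Ho, with adjusted p-values in limma between 9.93e-06 and 0.000143. *Cpr65Av*, of the same band, changed by 7.07, 6.44 and 6.15 in WT, He and Ho, and the remaining 3 genes of the band did not pass the filter.

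Of the 3 genes of band 65E, 1 was among the most abundant at stage 17, 1 at stage 16 and 1 rose from near 0. *Cpr65Ea* (CG8640) had 513 and 31.4 normalized reads in WT16, 584 and 24.8 in He16 and 1200, 135.9 and 2030 in Ho16. At stage 17 it had 22316 and 22162 in WT, 30707 and 28515 in He and 9184, 14357 and 18177 in Ho, with every Ho17 library below the 4 others. The stages did not overlap, but the wide spread at stage 16 left the changes of 8.64 (WT), 9.04 (He) and 5.23 (Ho) on the log2 scale at adjusted p-values of 0.00256, 0.00201 and 0.00935 in limma.

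*Cpr65Eb* (CG8638) had 1707 and 1211 normalized reads in WT16 and 649 and 1168 in WT17, and 1775 and 1277 in He16 and 1268 and 2256 in He17. In Ho it had 4260, 1394 and 1735 at stage 16 and 647, 207 and 1651 at stage 17. The WT libraries of the 2 stages did not overlap, with stage 17 lower, and the He and Ho libraries did. The log2 changes were -0.95 in WT, 0.22 in He and -2.34 in Ho, with adjusted p-values of 0.657, 0.946 and 0.0458 in limma. *Cpr65Ec* rose from at most 29.9 normalized reads at stage 16 to between 1463 and 4489 at stage 17, with log2 changes of 9.58, 9.74 and 8.52 in WT, He and Ho (adjusted p at most 0.000122 in limma).

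Bands 66C to 67B held a gene with no detectable change beside one that rose in Ho. *Cpr66D* (CG32029) had 1780 and 1074 normalized reads in WT16 and 1033 and 2093 in WT17, 1505 and 833.5 in He16 and 1416 and 2686 in He17, and 3254, 859 and 2994 in Ho16 and 1787, 233 and 1470 in Ho17. The stages overlapped in each genotype, and the adjusted p-values in limma were 0.975, 0.695 and 0.228. *Cpr67B* (CG3672) had 53.1 and 30.8 in WT16 and 1106 and 961 in WT17, 127.4 and 21.7 in He16 and 1273 and 329 in He17, and 44.5, 31.4 and 0 in Ho16 and 3815, 4284 and 1576 in Ho17. It passed the threshold in Ho, with a log2 change of 8.23 (SE 0.97, adjusted p = 5.45e-05 in limma), against changes of 4.95 in WT (adjusted p = 0.0142) and 3.72 in He (adjusted p = 0.0665).

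In band 67F all 3 genes were higher at stage 17 in every genotype without overlap. *Cpr67Fa2* (CG18349) had 24.4 and 2.37 normalized reads in WT16 and 2871 and 2847 in WT17, 5.38 and 0 in He16 and 2091 and 2350 in He17, and 16.2, 0 and 44.9 in Ho16 and 1539, 2649 and 1865 in Ho17. The log2 changes were 8.22, 9.12 and 7.68, with adjusted p-values of 0.000203, 0.000107 and 3.46e-05 in limma. *Cpr67Fa1*, of the same band, changed by 8.06, 8.39 and 6.48. Whether reads were shared between these genes was not tested. Their levels differed, with 1038 normalized reads of *Cpr67Fa1* and 2871 of *Cpr67Fa2* in WT17ab.

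Band 49A and bands 50C to 60D held genes with smaller changes, beside *Cpr49Af* of band 49A with a large one. The ratio of its means was 246 in WT and 258 in He, from only 1.59 and 1.35 normalized reads at stage 16 (adjusted p of 0.00178 and 0.0016 in limma). In Ho it rose from 0 reads to a mean of 541 normalized reads, at least 76.6-fold against a floor of 3 reads (adjusted p = 3.4e-05 in limma). *Cpr49Ag* (CG8511) had 46.7 and 15.99 normalized reads in WT16 and 1854 and 1609 in WT17, 45.8 and 54.5 in He16 and 1879 and 1633 in He17, and 72.8, 91.98 and 361 in Ho16 and 1724, 2258 and 2043 in Ho17. It rose by 6.30, 5.73 and 4.64 on the log2 scale (adjusted p of 5.69e-05, 0.00011 and 4.65e-05 in limma). *Cpr49Ae* (CG8505) had 30.8 and 7.70 in WT16, 437 and 382 in WT17, 20.6 and 31.0 in He16, 341 and 715 in He17, 32.3, 6.27 and 281.5 in Ho16 and 259, 345 and 360.5 in Ho17. It did not pass in any genotype, and in Ho the stages overlapped, since Ho16c lay above Ho17a.

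*Cpr51A* (CG10112) had at least 613 normalized reads in every stage 16 library and the smallest standard errors of the 10 genes called in each genotype. Its levels were 852 and 613 normalized reads in WT16 and 9684 and 20763 in WT17, 790 and 680 in He16 and 13278 and 20762 in He17, and 1827, 1091 and 1125 in Ho16 and 4986, 8258 and 8345 in Ho17. The ratio of the means was 20.8 in WT, 23.2 in He and 5.34 in Ho, and the log2 changes were 5.35 (SE 0.51), 5.58 (SE 0.51) and 3.09 (SE 0.42), with adjusted p-values of 3.23e-05, 3.35e-05 and 0.000151 in limma. *Cpr56F* (CG9036) had 841 and 163.5 normalized reads in WT16, 8720 and 7305 in WT17, 981.5 and 480.5 in He16, 8077 and 10789 in He17, 1964, 401 and 2416 in Ho16 and 5475, 8204 and 9288 in Ho17. Its stages did not overlap in any genotype, and its changes of 5.55, 4.78 and 3.28 on the log2 scale stayed above the threshold (adjusted p of 0.00266, 0.00762 and 0.011 in limma).

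In bands 62B and 64A no gene passed in WT or He, and 1 passed in Ho. *Cpr62Bc* (CG1919) had 175 and 5.92 normalized reads in WT16 and 12769 and 7579 in WT17, 167 and 0 in He16 and 11838 and 10334 in He17, and 12.1, 6.27 and 695 in Ho16 and 5020, 8953 and 8774 in Ho17. Its log2 changes of 8.94, 10.23 and 8.07 were among the largest of the family, but its standard errors (1.88, 1.88 and 1.53) were the largest of all tested members in each genotype, and the adjusted p-values were 0.00626, 0.0029 and 0.00183 in limma. *Cpr62Bb* (CG13935) had 60.5 and 15.99 in WT16, 539 and 392 in WT17, 75.4 and 53.9 in He16, 607 and 543 in He17, 165.7, 56.4 and 39.3 in Ho16 and 726, 1003 and 775.6 in Ho17, and it rose by 3.83 on the log2 scale in Ho (SE 0.51, adjusted p = 0.000129 in limma).

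*Cpr64Ab* (CG15007) had 144 and 7.70 normalized reads in WT16, 1112 and 1953 in WT17, 110 and 4.33 in He16, 1679 and 2291 in He17, 493, 10.4 and 437 in Ho16 and 572, 283 and 1542 in Ho17. The stages were apart in WT and He and overlapped in Ho. *Cpr64Ad*, described with the genotypes, had log2 stage changes of 3.42, 3.54 and 2.77 in WT, He and Ho (adjusted p of 0.0269, 0.0253 and 0.0166 in limma).

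Of the remaining bands, *Cpr78Cc* (CG7658) had 40.4 and 2.37 normalized reads in WT16 and 5672 and 4010 in WT17, 29.6 and 16.1 in He16 and 5559 and 4202 in He17, and 20.2, 6.27 and 98.2 in Ho16 and 3184, 6419 and 3468 in Ho17. It rose by 8.90, 8.45 and 7.96 on the log2 scale (adjusted p of 3.02e-05, 4.11e-05 and 4.71e-06 in limma). *Cpr92F* (CG5494) had 51.0 and 0 in WT16 and 5629 and 2593 in WT17, 35.9 and 0 in He16 and 4847 and 5803 in He17, and 0, 4.18 and 91.6 in Ho16 and 2224, 4874 and 4172 in Ho17. It rose by 9.94 in He (adjusted p = 0.000807 in limma) and by 8.82 in Ho (adjusted p = 0.000205), and its WT change of 9.15 had an adjusted p of 0.00135.

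The 3 genes of band 72E had few reads. *Cpr72Ec* (CG4784), the highest of them, had at most 2.09 normalized reads in any stage 16 library. At stage 17 it had 3.89 and 133 in WT, 10.99 and 15.8 in He and 0, 28.6 and 0 in Ho. The stages did not overlap in WT (at least 27.5-fold higher against a floor of 3 reads in each library, adjusted p = 0.0975 in limma) and in He (at least 5.88-fold, adjusted p = 0.249), and they overlapped in Ho. The WT value rests on WT17c, since WT17ab lay at the floor of 3 reads. *Lcp4* (CG2044) had 14.9 and 10.1 normalized reads in WT16 and 67.4 and 118.5 in WT17, 23.3 and 22.3 in He16 and 339.7 and 224.5 in He17, and 72.8, 41.8 and 0 in Ho16 and 98.96, 254.7 and 149.1 in Ho17. It was higher at stage 17 in each genotype without overlap, and limma gave adjusted p-values of 0.298, 0.0957 and 0.0406.

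The share of each cluster in the summed reads changed with stage. In the stage 16 libraries band 65A took at most 2.05% and band 47E at most 6.13% of the summed normalized reads of the 60 genes. At stage 17, band 65A took between 16.2 and 29.7%. Band 47E took at most 12.5% in WT17 and He17 and at least 17.5% in Ho17. Bands 66C to 67B went the other way, from between 18.6 and 24.6% to between 1.47 and 5.95%. In Ho, band 64A took between 1.73 and 8.27% at stage 16 and between 0.893 and 2.46% at stage 17, against 22.2 to 26.8% and 8.52 to 10.9% in the WT and He libraries, and the Ho libraries did not overlap with the others at either stage. Most reads of band 64A in WT and He were those of *Cpr64Ad* (2515 of 2663 normalized reads in WT16ab). Its neighbour *Cpr64Ab* overlapped between Ho and WT at both stages, with 493, 10.4 and 437 in Ho16 against 144 and 7.70 in WT16. These shares add to 100% in a library, so that a rise of 1 cluster lowers the others.

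**Figure D3:**
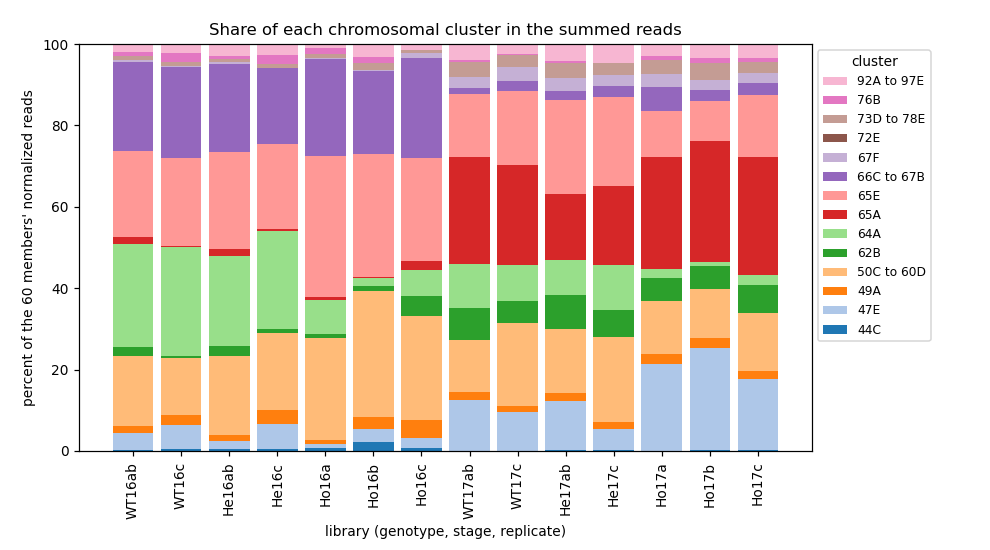
Share of each chromosomal cluster (colours, named by the bands in the gene symbols) in the summed normalized reads of the 60 genes, in percent, for each library. Band 65A (dark red) takes at most 2.05% at stage 16 and at least 16.2% at stage 17, and band 64A (light green) is narrower in the Ho libraries than in the WT and He libraries of the same stage.

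The second comparison asks whether the genes differed between genotypes at a given stage. In limma 0 of the 53 genes passed an adjusted p under 0.001 in any of the 6 comparisons (at most 0.00863% of all tested genes were called in either direction), and voom weights on the recovered reads gave 0 as well. At an adjusted p under 0.05 the count was also 0 in each comparison, against 0.095% of all tested genes for Ho16 and 0.164% for Ho17 when set against WT. For Ho against WT at stage 16, 7 genes had an unadjusted p under 0.05 (6.61% of all tested genes had), and for Ho against He 7 (6.47%). At stage 17 the counts were 6 for Ho against WT (8.15%) and 6 for Ho against He (4.96%). For He against WT they were 1 at stage 16 (1.23%) and 2 at stage 17 (2.53%). Of the 53 genes, 4 were higher and 5 lower without overlap in Ho16 than in WT16, against 8.50% and 10.8% of all tested genes. In Ho17, 6 were higher and 10 lower than in WT17, against 13.4% and 15.8%, and 5 were higher and 12 lower than in He17, against 12.4% and 14.2%. Against He16, 4 were higher and 8 lower (7.95% and 10.3%). In He, 4 were higher and 2 lower than in WT at stage 16 (17.3% and 17%), and 9 were higher and 6 lower at stage 17 (15.8% and 16.5%). The comparisons of Ho with WT and with He use the same Ho libraries.

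*Cpr64Ad* (CG1259) had the largest log2 difference of the 53 genes between Ho17 and each of the other genotypes. It had 2515 and 1531 normalized reads in WT16, 2070 and 1502 in He16 and 800, 66.9 and 524 in Ho16. At stage 17 it had 16456 and 11282 in WT, 11006 and 15301 in He and 1558, 1196 and 1868 in Ho. All Ho libraries were below all WT and He libraries of the same stage, and the Ho17 libraries overlapped with the WT16 and He16 libraries. The Ho17 mean was 9.0-fold below the WT17 mean and 8.54-fold below the He17 mean. On the deposited log2-like scale, which does not give the log2 of these ratios, the differences were -3.91 (SE 0.85, unadjusted p = 0.00053, adjusted p = 0.112 in limma) and -3.83 (SE 0.85, adjusted p = 0.211 in limma). At stage 16 the log2 differences were -3.26 from WT (adjusted p = 0.354 in limma) and -3.06 from He (adjusted p = 0.71). Over the alternatives run, the adjusted p in limma ran from 0.0041 to 0.63 for Ho17 against WT17 and from 0.0098 to 1 against He17. With a quality weight for each library, which gave Ho16b a weight of 3.24 and Ho16c one of 0.129, the stage 16 differences passed the threshold (log2 differences of -5.26 and -5.06, adjusted p of 5.7e-05 and 0.00042 in limma). Over all alternatives these 2 adjusted p-values ran from those values up to 1. The stage change of *Cpr64Ad* did not differ detectably between Ho and WT (difference of -0.65 on the log2 scale, SE 1.20, adjusted p = 0.986 in limma).

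**Figure D4:**
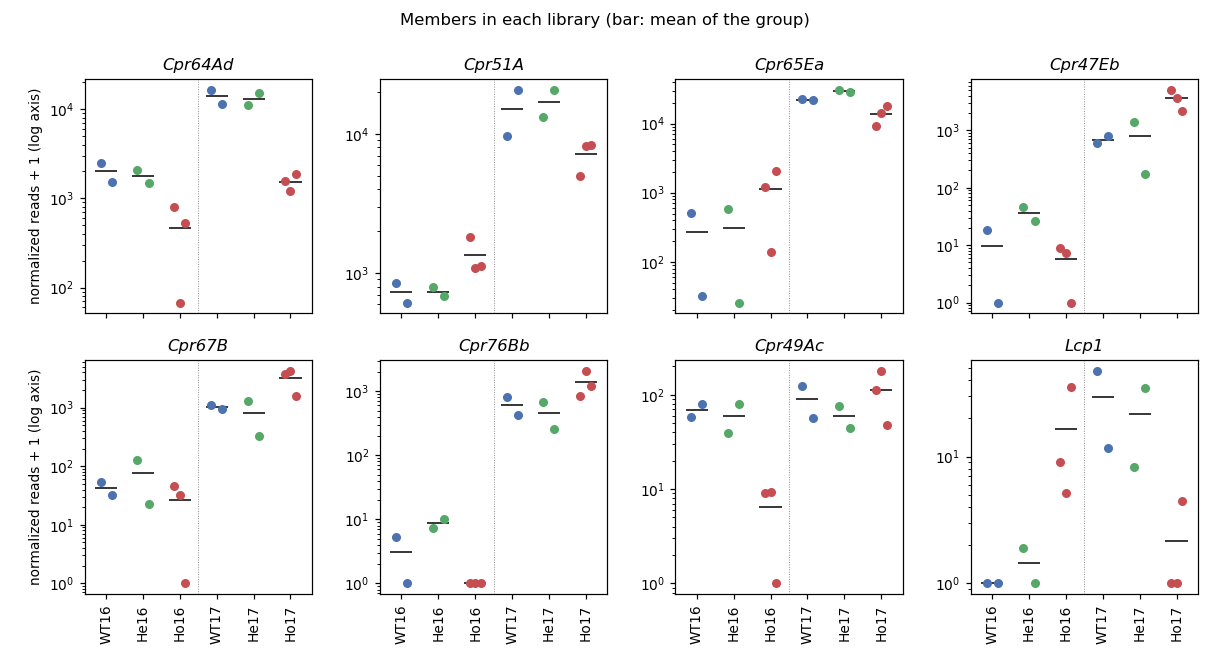
Normalized reads plus 1, on a log axis, of 8 genes in each library, grouped by genotype and stage, with a bar at the group mean. The Ho points of *Cpr64Ad* lie below the WT and He points at both stages, and those of *Cpr47Eb*, *Cpr67B* and *Cpr76Bb* lie above them at stage 17.

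*Cpr51A* was higher in Ho than in both other genotypes at stage 16 and lower at stage 17, without overlap in any of these 4 comparisons. The log2 differences were 1.12 from WT16 and 1.09 from He16, and -1.15 from WT17 and -1.41 from He17, each with a standard error of 0.47 and adjusted p-values between 0.544 and 0.744 in limma. The stage change in Ho was smaller than in WT by 2.27 and smaller than in He by 2.50 on the log2 scale (SE 0.66 each, unadjusted p of 0.0047 and 0.0024, adjusted p of 0.984 and 0.821 in limma). *Cpr65Ea*, *Cpr65Ec* and *Cpr97Ea* were also lower in Ho17 than in WT17 and He17 without overlap. For *Cpr97Ea* the gap was narrow, from 655 normalized reads in Ho17b to 670 in WT17ab.

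At stage 17 the 3 Ho libraries were above all WT and He libraries for *Cpr47Eb*, *Cpr62Bb*, *Cpr67B* and *Cpr76Bb*. *Cpr76Bb* (CG9290) had 4.25 and 0 normalized reads in WT16, 6.28 and 9.29 in He16 and 0 in each Ho16 library. At stage 17 it had 807.5 and 426 in WT, 668 and 253 in He and 852, 2095 and 1220 in Ho. It rose in WT by 6.69 on the log2 scale (SE 0.78, adjusted p = 0.00012 in limma) and in Ho by 9.12 (SE 0.64, adjusted p = 1.37e-06), at least 197-fold against a floor of 3 reads in each Ho16 library, while the He change of 4.75 had an adjusted p of 0.00135. Its stage change was larger in Ho than in He by 4.37 on the log2 scale (SE 1.01, unadjusted p = 0.00089, adjusted p = 0.795 in limma). For *Cpr47Eb* the Ho17 mean was 5.2-fold above WT17 and 4.60-fold above He17 (log2 differences of 3.01 and 3.51, SE 1.08, adjusted p of 0.436 and 0.643 in limma). For *Cpr67B* the ratios were 3.12 and 4.03 (log2 differences of 1.98 and 2.82, SE 1.09, adjusted p of 0.703 and 0.84 in limma).

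In band 49A, 2 genes stood apart in Ho16 at an unadjusted p under 0.05 in limma against both other genotypes, in opposite directions. A further gene, *Cpr49Ah*, was also lower in Ho16 without overlap, but did not meet this rule. It had 8.08, 12.5 and 0 normalized reads in Ho16, against 25.5 and 24.9 in WT16 and 22.4 and 47.7 in He16. *Cpr49Ac* (CG8502) had 57.4 and 78.2 normalized reads in WT16, 38.6 and 78.03 in He16 and 8.08, 8.36 and 0 in Ho16, and 123.1 and 55.6 in WT17, 74.2 and 43.8 in He17 and 110.8, 179 and 46.8 in Ho17. Ho16 was lower than both other genotypes without overlap, with log2 differences of -2.75 and -2.53 (SE 0.77, adjusted p of 0.461 and 0.71 in limma, -1.98 and -1.76 without Ho16c), and in Ho17 the libraries overlapped with the others. In Ho16a the 8.08 normalized reads lie below the 12.1 that 3 reads stand for. *Cpr49Ag* was higher in Ho16 than in WT16 and He16, by 1.93 and 1.33 on the log2 scale (SE 0.60, adjusted p of 0.557 and 0.71 in limma). Without Ho16c these differences were 1.19 and 0.59.

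*Lcp1* (CG11650) had few reads in every library. It had 0 normalized reads in both WT16 libraries, 0.897 and 0 in He16 and 8.08, 4.18 and 34.6 in Ho16, and 46.7 and 10.7 in WT17, 7.33 and 33.7 in He17 and 0, 0 and 3.47 in Ho17. Ho was above the others at stage 16 and below them at stage 17, without overlap. Ho16a and Ho16b, with 2 reads each, lie below the floor of 3 reads, so that only Ho16c exceeded it at stage 16. The stage change in Ho was lower than in WT by 5.20 on the log2 scale (SE 1.22, unadjusted p = 0.00098, adjusted p = 0.631 in limma) and lower than in He by 4.33 (adjusted p = 0.821). Whether reads were shared between *Lcp1* and its neighbour *Lcp2* was not tested. Their levels did not follow each other: Ho16c had 34.6 normalized reads of *Lcp1* and 0 of *Lcp2*, and Ho17b had 0 and 34.7.

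In the interaction of genotype and stage, 0 of the 53 genes were called for Ho against WT (0.00% of all tested genes were), Ho against He or He against WT in limma, and with voom weights. At an unadjusted p under 0.05, 6 genes passed for Ho against WT (4.19% of all tested genes), 7 for Ho against He (4.62%) and 1 for He against WT (0.527%). The median log2 difference of the stage changes over the 53 genes was -0.61 for Ho against WT and -0.51 for Ho against He, where all tested genes had 0.07 and 0.12. Ho16a and Ho16b had the lowest depth of the series and Ho16c the most genes at 0, and the part of these differences in the Ho comparisons was not tested.

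Other genes of the cuticle were set beside the family. Of 27 further RR-type genes outside it, 26 were found and 22 tested. Of these, 13 rose and 0 fell in WT (2.77% of all tested genes were called higher), 11 and 0 in He (2.49%) and 16 and 0 in Ho (6.91%), with median log2 changes of 6.14, 5.2 and 5.45. The largest changes in WT were those of *Lcp65Ag2*, *Lcp65Ag1* and *Lcp65Ag3* (10.64, 10.38 and 10.20, adjusted p at most 3.23e-05 in limma), near-identical larval cuticle genes of band 65A. Of 14 tested genes of chitin synthesis and organisation, 1 fell in each genotype (*dsx-c73A*, by 6.91 on the log2 scale in WT, adjusted p = 6.07e-05 in limma), where 0.596%, 0.501% and 1.04% of all tested genes were called lower in WT, He and Ho. *obst-E* rose in He and *Cht5*, a chitinase gene, in Ho. At an adjusted p under 0.05 in limma, 6 of the 14 passed in WT (13.3% of all tested genes did), *obst-E*, *Cht5* and *mmy* higher and *dsx-c73A*, *knk* and *kkv*, a chitin synthase gene, lower. The median log2 changes of the 14 genes were -0.35 in WT, 0.46 in He and -0.25 in Ho. *obst-E*, which encodes a chitin-binding protein, had the largest WT change of this list, from 94.4 to 6167 mean normalized reads (adjusted p = 0.0042 in limma). Of 19 tested genes of the ecdysone response and of epidermal regulation, 1 rose in each genotype, *Eip74EF*, a transcription factor gene induced by ecdysone (6.45 on the log2 scale in WT, adjusted p = 0.000477 in limma), and 1 fell in He, *Hr3*, a nuclear receptor gene. In WT, He and Ho, 2.77%, 2.49% and 6.91% of all tested genes were called higher, so that 1 gene of 19 is no result about this list. The median log2 changes of the 19 genes were 0.09, 0.21 and 0.82. The nuclear receptor genes *Hr4* and *ftz-f1* of the same hormone cascade had WT changes of -4.78 and 3.45, with adjusted p-values of 0.00602 and 0.0439 in limma. In no comparison between genotypes was a gene of these 3 lists called.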

How the data were processed

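Poly-A RNA of 14 pools of embryos was sequenced. By the methods of the study and the submitters' notes, reads were aligned with Bowtie (best alignment) to the FlyBase r5.22 genome and counted on genes. The authors scaled the counts with DESeq size factors and deposited 1 variance-stabilized value, on a log2-like scale, for each gene and library. Tool versions are not given in the sources used here, and counting is not stated to use strand, so that overlapping genes on opposite strands cannot be told apart. Libraries were grouped by their titles, since the stage field of the labels gives stage 16 for all 14.

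A gene at 0 reads has the value -0.040. Reads were recovered along 1 curve shared by all libraries: 99.96% of 158533 values came within 0.05 of a whole number, and those that did not stood for at least 34369 reads. The scales of the libraries equalled median-of-ratios size factors within 8.69e-05%. Depth had a median of 17997748 reads.

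Tests used limma 3.58.1 (R 4.3.3) on the deposited values, with 6 condition means and a trended prior (8 residual and 4.58 prior df). P-values were adjusted by Benjamini-Hochberg over the 11584 genes reaching 10 reads, at median library size, in 2 or more libraries and 15 reads in all. P-values measure only the spread between these pools. Alternatives were no filter, only the conditions compared, a replicate block, each library left out, pseudocounts of 1 and 0.1, voom, library quality weights, an adjusted p of 0.05, the longest transcript and, added after the data were seen, scaling to total reads.

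Described in full were 24 members: the most abundant of the band clusters, and those with Ho apart from both other genotypes without overlap at an unadjusted p under 0.05. The members, lists and rules were chosen with earlier results of these data known, and other members are named after their values were seen. Symbols and exon lengths came from a later annotation, so no coordinates are given. Sequences were not analysed here.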

Additional observations from a re-analysis of the deposited data

Results flagged for a closer look

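For 3 genes the stage 17 libraries lay above those of stage 16 in 1 genotype and below them in another, without overlap. None of the 3 was called between stages or in the interaction, so that opposite directions were not established. Of all tested genes, 33.5% lay higher and 28.4% lower at stage 17 without overlap in WT, 33.8% and 29.9% in He and 22.0% and 13.5% in Ho. The share with opposite directions was not counted, so that the number of these genes is no result about the family. The stage 17 libraries of *Lcp1* lay above those of stage 16 in WT and He (log2 changes of 3.20 and 2.33) and below them in Ho (-2.00), with adjusted p-values of 0.0403, 0.161 and 0.0741 in limma. In Ho the 2 reads each of Ho16a and Ho16b are below the floor of 3 reads, and the separation there is that of 2 reads in Ho16b (4.18 normalized) from 4 reads in Ho17c (3.47 normalized). The difference between the changes had a limma adjusted p of 0.631 for Ho against WT and of 0.821 for Ho against He.

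*Cpr47Ee* had 118 and 144.5 normalized reads in WT16, 8.07 and 12.4 in He16 and 4.04, 4.18 and 0 in Ho16, and 71.3 and 16.1 in WT17, 23.8 and 17.2 in He17 and 54.1, 112.6 and 11.3 in Ho17. Its log2 stage change was -1.57 in WT, 0.58 in He and 2.61 in Ho. The difference of 4.18 between Ho and WT had an unadjusted p of 0.0032 in limma and an adjusted p of 0.984. Both WT16 libraries were above every He16 and Ho16 library, with log2 differences from WT16 of -2.71 for He16 (adjusted p = 1 in limma) and -3.93 for Ho16 (adjusted p = 0.133). The recovered reads of this gene in Ho16 were below the floor of 3 reads in each library.

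*Lcp3* had 9.87 and 0 normalized reads in He16 and 10.1 and 12.9 in He17, against 28.3, 62.7 and 92.6 in Ho16 and 14.4, 0 and 8.67 in Ho17. Its log2 stage change was 1.34 in He and -2.39 in Ho, and the difference of -3.73 had a limma adjusted p of 0.877.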

How the results depend on the processing

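The counts of genes called from stage 16 to 17 were the least stable values. Against 11, 11 and 21 calls in WT, He and Ho, limma gave 0 in WT and 5 in Ho with only the conditions compared, 7 in WT and 4 in He with a pseudocount of 1, 3, 2 and 8 with a pseudocount of 0.1, 9 in Ho with voom weights, 24 in WT and 27 in He with library quality weights, 6 in WT and 2 in He with scaling to total reads, and 30, 28 and 35 at an adjusted p of 0.05. With each library left out in turn the counts ran from 3 to 24 in WT, from 2 to 21 in He and from 13 to 25 in Ho. Scaling to total reads moved the median stage change of all tested genes by -0.28 in WT, -0.27 in He and -0.09 in Ho on the log2 scale. Between genotypes at stage 16, 1 gene (*Cpr64Ad*) was called with library quality weights, and otherwise 0 were called at either stage or in the interaction under any alternative. The causes were not tested. Of 1129 alternative values for 49 changes of the genes described, 0 changed sign, 106 of them fell below the threshold and 2 rose past it. These 49 were called stage changes and differences of Ho without overlap, so that a change of sign was unlikely beforehand. Small changes outside them did change sign. Over the alternatives the WT stage change of *Cpr66D* (0.12) ran from -0.55 to 0.79, and the He stage change of *Cpr65Eb* (0.22) from -0.33 to 0.77. In Ho16a, the library with the lowest depth, 3 reads stand for 12.1 normalized reads, which limits what can be seen of low genes there. Ho16c, at 15290041 reads, had the most genes at 0 (4514) and the lowest quality weight (0.129).

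With the experiment (c against the others) as a replicate block, 15 genes were called in WT, 13 in He and 22 in Ho, and 0 between genotypes or in the interaction. The block puts Ho17a and Ho17b with the ab libraries, though their 79 and 71 genes with exactly 1 read lie in the range of the c libraries. It therefore does not follow that difference between libraries. The letters were not taken to pair the samples: deviations from the group means correlated by 0.297 for WT c, 0.322 for He c, and by 0.021, 0.032 and 0.124 for Ho a, b and c. Between genotypes the c libraries correlated by 0.021 to 0.335, highest for WT16c with He16c.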

Other observations

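At stage 17 both WT libraries lay above all 5 He and Ho libraries for *Cpr47Ef*, *Cpr60D* and *Cpr67Fa2* and below them for *Cpr49Ad* and *Cpr62Bb*. None of these differences passed the test. Of all tested genes, 15.8% were higher and 16.5% lower without overlap in He17 than in WT17, and 13.4% and 15.8% in Ho17 than in WT17. The share that differs in both comparisons was not counted, so that this set is no result about the family. Values follow for 3 of these genes not described above. *Cpr47Ef* had 499 and 435 normalized reads in WT17, 35.7 and 102.6 in He17 and 212, 55.4 and 78.9 in Ho17, with both WT17 libraries above the 5 others. The log2 differences from WT17 were -3.00 for He17 (SE 0.78, adjusted p = 0.82 in limma) and -2.39 for Ho17 (SE 0.71, adjusted p = 0.279). At stage 16 it had 203 and 178 in WT, 67.3 and 336.9 in He and 60.6, 112.9 and 86.0 in Ho. *Cpr60D* had 267 and 160.7 normalized reads in WT17, 129.1 and 12.2 in He17 and 83.7, 143.8 and 94.5 in Ho17, with log2 differences from WT17 of -1.98 (adjusted p = 1 in limma) and -0.99 (adjusted p = 0.898). *Cpr49Ad* had 0 reads in all 7 stage 16 libraries. At stage 17 it had 36.3 and 0 normalized reads in WT, 90.7 and 44.5 in He and 62.6, 110.9 and 84.1 in Ho, with the He and Ho libraries above both WT libraries (adjusted p of 1 and 0.351 in limma). The comparisons of He17 and Ho17 share the WT17 libraries, and WT is also the only genotype from the *Oregon R* stock, so that strain and *sall* cannot be told apart here.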
